A study of Homo sapiens with 18 samples.

Results

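The genes described here are 10 members of the ETS family of transcription factors, ETS1, ETS2, ELF1, ELF2, ELF4, FLI1, ERG, ETV6, ELK3 and GABPA, among 60609 gene identifiers counted in OCI-AML1 cells. They were picked by symbol from a list drawn up with results of these same libraries known, so their changes in count are given as a description, without p-values. OCI-AML1 is an established line of human acute myeloid leukaemia, labelled wild type, and its poly(A) RNA was sequenced after culture with AML874, SEL120-34A or the solvent DMSO for 8 h or 24 h. Each of the 6 groups held 3 libraries, which gave 98975944 to 142496541 gene counts each. SEL120-34A is an inhibitor of the Mediator kinases CDK8 and CDK19, while AML874 is a code name that the labels do not explain. The labels give no dose, and they do not say whether the 3 libraries of a group came from separate cultures, so the errors measure the spread between libraries, which may be technical. All cells are of a single line, so nothing here speaks of other leukaemias. By its title, the study asked how inhibiting the Mediator kinases bears on the response to venetoclax, which blocks BCL2. No library here is labelled with venetoclax, and each compound was set against DMSO at the same time.

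ETS proteins share a winged helix-turn-helix domain that binds DNA around a GGAA core. ETS1 and ETS2 are close relatives that the kinase ERK phosphorylates, and they act mostly as activators, often beside AP-1. ETV6 is a repressor that is lost or fused to other genes in several leukaemias, FLI1 and ERG serve stem cells and megakaryocytes, ELF1, ELF2 and ELF4 act in blood and immune cells, ELK3 joins the factor SRF at immediate early genes, and GABPA is the DNA-binding subunit of the GABP complex. Mediator links such factors to RNA polymerase II.

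The promoters of ETS2 and ETV6 are shown because these were the members called higher than DMSO with each compound at each time. A short stretch of the GABPA promoter is shown because it was the only member window with a full ETS motif. RefSeq sequences on GRCh38.p14 were used, and 8 of the 10 members had an entry, with 18 start sites in all. ETS1 and FLI1 had none. The window was the 250 bases before each start, read 5′ to 3′ on the strand of the gene, and capitals mark a motif. The ETS2 window lies at chr21:38804933-38805182 on the plus strand and the ETV6 window at chr12:11649424-11649673 on the plus strand. The stretch before the downstream ETS2 start lies at chr21:38805903-38805928 and the GABPA stretch at chr21:25734896-25734922, both on the plus strand and both inside an annotated exon, which is why only the motif and its flanks are given.
ETS2: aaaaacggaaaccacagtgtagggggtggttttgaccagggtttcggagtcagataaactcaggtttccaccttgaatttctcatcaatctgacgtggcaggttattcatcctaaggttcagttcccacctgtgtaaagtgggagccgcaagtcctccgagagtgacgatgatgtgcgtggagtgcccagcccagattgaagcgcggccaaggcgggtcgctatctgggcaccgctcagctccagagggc
ETS2 downstream start: agagcgcgccGCGTGGGggacggccc
ETV6: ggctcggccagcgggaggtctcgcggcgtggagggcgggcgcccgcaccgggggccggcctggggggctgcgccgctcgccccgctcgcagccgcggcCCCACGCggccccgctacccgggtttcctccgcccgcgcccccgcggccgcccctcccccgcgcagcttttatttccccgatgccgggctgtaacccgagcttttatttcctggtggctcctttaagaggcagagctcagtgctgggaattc
GABPA: ctccgctctaCTTCCGGccctggctcc
The motifs searched on either strand were the ETS site CCGGAAG, the AP-1 site TGANTCA, the EGR site GCGTGGG and the cyclic AMP response site TGACGTC. Of 35116 promoter windows of this length, 8.52% held the ETS site, 6.57% the AP-1 site, 6.19% the EGR site and 3.12% the cyclic AMP response site. Among the 18 member windows, 4 held the EGR site, 1 the ETS site, 1 the AP-1 site and 0 the cyclic AMP response site, with no overlap between sites. The EGR site stood at positions -16 to -10 before the downstream ETS2 start and at -152 to -146 before the ETV6 start, and windows of ELF2 and ERG held it too. The ETS site of GABPA stood at -66 to -60, and the AP-1 site was at -121 to -115 before an ELF4 start. The upstream ETS2 window held none of the 4 sites. The EGR site is itself rich in G and C. The 4 windows that held it were 68.8 to 78.8% G or C, and the other member windows 33.2 to 82.0%. The part of base composition in these counts was not tested. These letters are a description of the windows and do not show binding.

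Every one of the 10 members passed the filter on low counts, which 20920 genes passed. The cells carried myeloid markers, with 9 of 10 past the filter and the sum of all 10 at 919.4 to 1299.3 CPM, the count as a share of the library size scaled with TMM factors. PTPRC reached 287.5 to 363.1 CPM, and ELANE lay at 0 to 0.0595 CPM. None of 5 T cell and 5 erythroid markers passed the filter, and their sums stayed at or under 0.0574 CPM, with HBA1, HBA2, HBB and ALAS2 at 0. The marker sums of 4 lists moved with the groups. The myeloid sum at 24 h was 919.4 to 932.0 CPM in AML874 libraries, 999.2 to 1013.3 CPM in SEL120-34A libraries and 1111.5 to 1149.4 CPM in DMSO libraries, and at 8 h it was 1193.8 to 1195.8, 1228.9 to 1241.1 and 1296.3 to 1299.3 CPM in AML874, SEL120-34A and DMSO libraries. The sum of 5 B cell markers was low, at 0.675 to 0.708 CPM with AML874 and 0.55 to 0.788 CPM with SEL120-34A at 24 h, against 1.15 to 1.55 CPM with DMSO, and 0.995 to 1.08, 1.12 to 1.19 and 1.69 to 1.91 CPM in those groups at 8 h. CD79A, part of the B cell receptor, had log2 changes of -1.66 ± 0.19 and -1.06 ± 0.17 at 24 h (edgeR adjusted p = 2.64e-09 and 6.68e-06). AML874 comes before SEL120-34A here and in the marker changes that follow. PAX5, at or under 0.153 CPM, went the other way with AML874 at 24 h (2.24 ± 0.60, edgeR adjusted p = 0.00209). Of 3 B cell markers tested there, 1 was higher and 1 lower, with a median of 0.56, beside 23.1% and 23.7% of all genes. MS4A1 stayed at or under 0.00758 CPM. For 5 megakaryocyte markers the sum at 24 h was 2.15 to 2.38 CPM with AML874 and 2.06 to 2.7 CPM with SEL120-34A, against 1.23 to 1.89 CPM with DMSO, and 1.14 to 1.71 CPM in all groups at 8 h. Of these only ITGA2B passed the filter, with changes of 0.53 ± 0.14 and 0.57 ± 0.14 at 24 h (edgeR adjusted p = 0.00229 and 0.00154). For 6 stromal and endothelial markers, nearly all PECAM1, which myeloid cells also express, the sum at 24 h was 48.7 to 51.8 CPM with AML874 and 53.2 to 57.8 CPM with SEL120-34A, against 66.4 to 75.5 CPM with DMSO, and 57.6 to 58.7, 60.3 to 62.2 and 67.4 to 75.4 CPM in those groups at 8 h. PECAM1 had changes of -0.48 ± 0.05 and -0.35 ± 0.05 at 24 h (edgeR adjusted p = 1.44e-08 and 2.59e-06). VWF, at or under 0.171 CPM, was higher with AML874 at 24 h (2.79 ± 0.71, edgeR adjusted p = 0.00141). Of 3 stromal and endothelial markers tested there, 1 was higher and 1 lower, with a median of 0.6, beside 23.1% and 23.7% of all genes. By edgeR, 1 myeloid marker was higher and 5 lower with AML874 at 8 h, 2 and 7 with SEL120-34A at 8 h, 2 and 7 with AML874 at 24 h, and 2 and 6 with SEL120-34A at 24 h, of 9 tested. Of all genes, 19.7% were called higher and 19.9% lower, then 22.4% and 22.6%, 23.1% and 23.7%, and 19.1% and 18.6%, in that order. The part of these markers in the ETS results was not tested, and in bulk RNA fewer cells of a type cannot be told apart from less RNA per cell. Libraries also varied within groups in hypoxia genes, of which 21 of 22 were tested. Their mean log2 CPM was 5.15 in SEL120-34A replicate 2 at 8 h, 5.44 in DMSO replicate 3 at 8 h, 5.63 in SEL120-34A replicate 2 at 24 h and 5.75 in DMSO replicate 1 at 24 h, which lay 0.18 to 0.42 above their group means. AML874 replicate 1 at 24 h also lay 0.18 above its group mean, to 2 decimals. Against DMSO, 8 and 6 of the 21 hypoxia genes were lower with AML874 and SEL120-34A at 8 h, and 7 and 5 at 24 h. Of all genes 19.9%, 22.6%, 23.7% and 18.6% were called lower in that order, and the 5 lay near their share. In the 4 comparisons 0 hypoxia genes were higher, beside 19.1 to 23.1% of all genes. Changes in count of the members are therefore also given without these 4 libraries where a call differed. Transcript lengths were not refitted without them.

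Compared per length, in TPM, the transcript share that RSEM estimates, ETS2 was the most abundant of the 10 genes in all 4 compound groups and ranked after FLI1 and ELF1 in both DMSO groups. ETS2 averaged 156.6 ± 4.2 TPM with AML874 at 24 h and 130.2 ± 5.11 TPM with SEL120-34A at 24 h, against 71.4 ± 0.405 TPM with DMSO at 24 h (SD, n = 3 each). The 8 h means were 85.8 ± 0.819 TPM with AML874 and 86.2 ± 2.81 TPM with SEL120-34A, against 57.0 ± 2.12 TPM with DMSO at 8 h. With SEL120-34A at 8 h the TPM range of ETS2 overlapped that of FLI1, at 83.9 ± 1.67 TPM, so their order there lies within the spread. ETS1 and ERG were the least abundant members in every group, at 8.18 to 12.4 TPM and 3.54 to 4.72 TPM as group means. ELF4 and ETV6 overlapped with AML874 at 8 h and with DMSO at 24 h, GABPA and ETV6 overlapped with DMSO at 8 h, and ELF2 and ELK3 overlapped with each compound at 8 h. All other neighbours in the order of TPM were separate in their group.

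ETS2 took a larger share of the members' transcripts with each compound than with DMSO. It made up 31.3 ± 0.416% of the summed member TPM with AML874 at 24 h and 26.4 ± 0.379% with SEL120-34A, against 17.1 ± 0.1% with DMSO. At 8 h its share was 22.5 ± 0.351% with AML874 and 22.6 ± 0.265% with SEL120-34A, against 15.9 ± 0.252% with DMSO. The ratio of ETS2 to ETS1 TPM was 18.5 ± 0.85 with AML874 and 11.9 ± 0.493 under SEL120-34A at 24 h, against 5.74 ± 0.0577 with DMSO. At 8 h the ratio was 10.5 ± 0.768 with AML874 and 9.37 ± 0.395 with SEL120-34A, against 5.45 ± 0.219 with DMSO. The summed member TPM was 500.7 ± 7.29 and 493.1 ± 13.2 with AML874 and SEL120-34A at 24 h, against 417.1 ± 2.34 with DMSO.

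**Figure D1:**
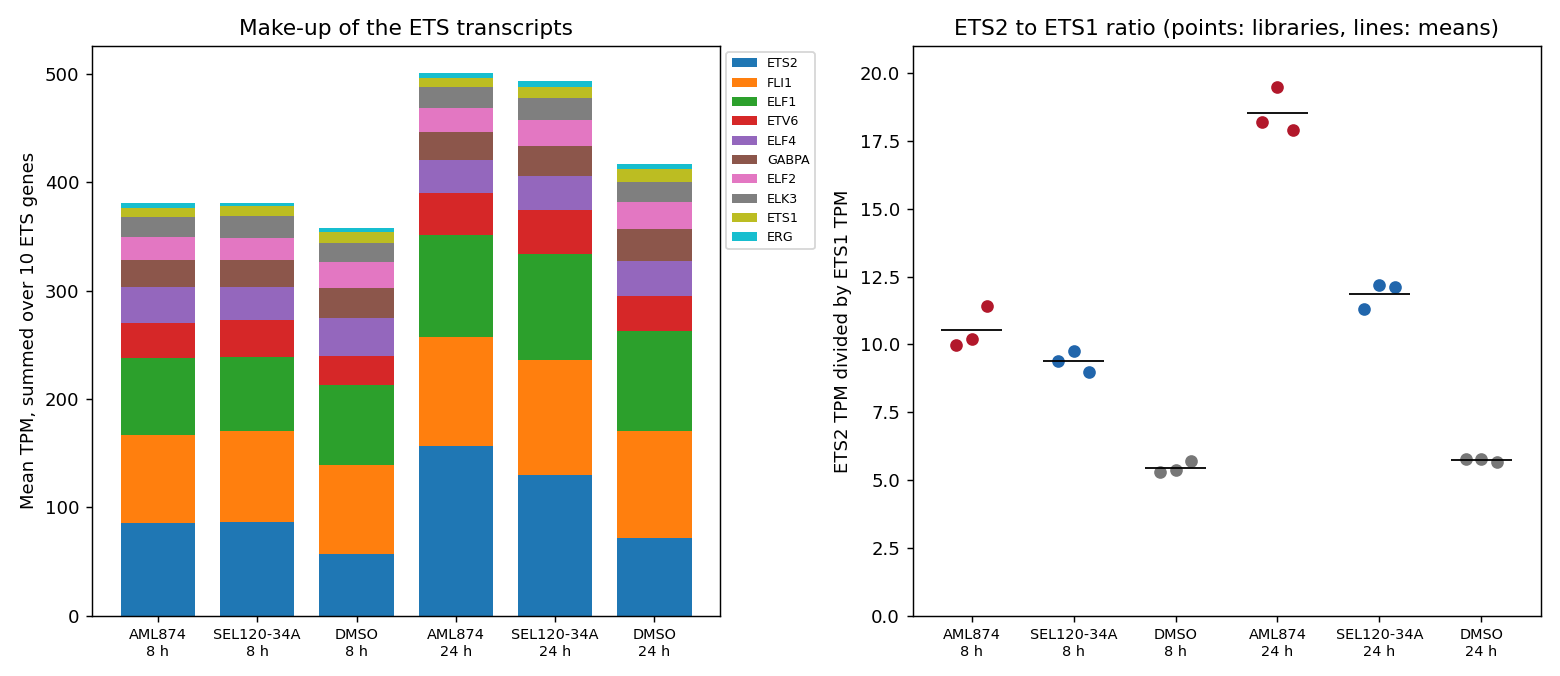
Left, mean TPM of the 10 ETS genes stacked per group of 3 libraries; right, the ratio of ETS2 to ETS1 TPM in each library, with lines at the group means. The ETS2 segment is tallest with AML874 at 24 h (156.6 TPM), and the ratio lies at 17.9 to 19.5 there, against 5.67 to 5.77 in the DMSO libraries at 24 h.

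ETS2 (ENSG00000157557, chr21:38805307-38824955, plus strand, GRCh38) had the largest changes of the 10 genes, with a mean absolute log2 change of 0.79 over the 4 comparisons with DMSO. At 24 h it had 385.8, 398.6 and 387.6 CPM in AML874 libraries and 302.4, 317.4 and 310.4 CPM in SEL120-34A libraries, against 171.7, 171.7 and 166.8 CPM in DMSO libraries. Earlier, at 8 h, ETS2 had 208.0, 209.2 and 209.3 CPM in AML874 libraries and 201.9, 208.4 and 200.3 CPM in SEL120-34A libraries, against 140.5, 141.8 and 142.0 CPM in DMSO libraries. Every compound library lay above every DMSO library of its time, and at 24 h every AML874 library lay above every SEL120-34A library, while the compounds overlapped at 8 h. The log2 fold change over DMSO was 1.20 ± 0.02 with AML874 and 0.87 ± 0.02 under SEL120-34A at 24 h, and 0.56 ± 0.02 and 0.53 ± 0.02 at 8 h (SE), or 2.30-fold, 1.82-fold, 1.48-fold and 1.44-fold. Over all alternatives, including those without the 4 libraries named above, these changes stayed within 1.19 to 1.23, 0.85 to 0.88, 0.54 to 0.61 and 0.49 to 0.59. ETS2 was also higher in DMSO cells at 24 h than at 8 h, by 0.27 ± 0.02.

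**Figure D2:**
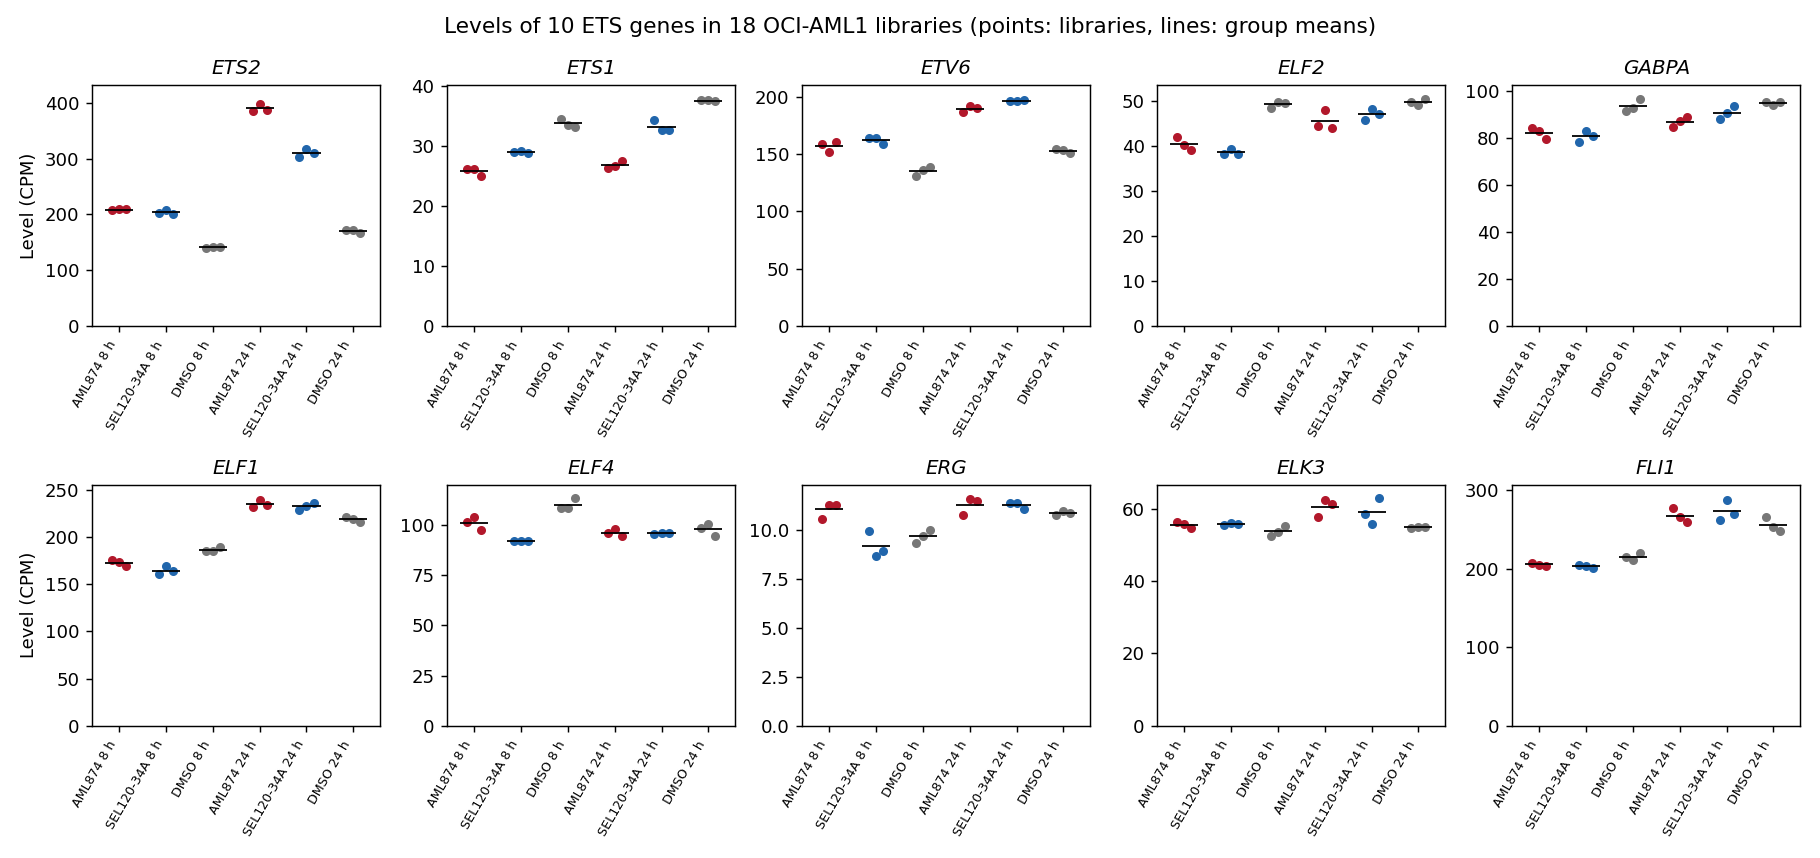
Level in CPM of each of the 10 ETS genes in each of 18 libraries (points) with group means (lines), in order of the mean absolute change. ETS2 lies at 385.8 to 398.6 CPM with AML874 at 24 h, against 166.8 to 171.7 CPM with DMSO, while ETS1 lies below DMSO with each compound at each time.

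ETS1 (ENSG00000134954, chr11:128458761-128587558, minus strand), the closest relative of ETS2, was lower with each compound where ETS2 was higher. At 24 h it had 26.3, 26.7 and 27.6 CPM in AML874 libraries and 34.4, 32.7 and 32.8 CPM in SEL120-34A libraries, against 37.7, 37.7 and 37.5 CPM in DMSO libraries. At 8 h, ETS1 had 26.2, 26.2 and 25.0 CPM in AML874 libraries and 29.1, 29.2 and 28.9 CPM in SEL120-34A libraries, against 34.6, 33.6 and 33.3 CPM in DMSO libraries. The 3 groups of each time did not overlap, with AML874 lowest. The log2 change over DMSO was -0.49 ± 0.03 with AML874 and -0.18 ± 0.03 under SEL120-34A at 24 h, and -0.39 ± 0.03 and -0.22 ± 0.03 at 8 h. All 4 were called, and stayed called in all alternatives. In DMSO cells ETS1 was higher at 24 h than at 8 h, by 0.15 ± 0.03, and with AML874 it averaged 26.9 ± 0.693 CPM at 24 h and 25.8 ± 0.697 CPM at 8 h (SD).

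ETV6 (ENSG00000139083, chr12:11649854-11895402, plus strand), the repressor, was higher than DMSO in all 4 comparisons. It had 186.7, 192.1 and 190.6 CPM with AML874 and 196.7, 196.4 and 197.1 CPM with SEL120-34A at 24 h, against 154.4, 153.6 and 151.2 CPM with DMSO. The 8 h values were 158.8, 152.3 and 160.9 CPM with AML874 and 164.3, 164.3 and 158.8 CPM with SEL120-34A, against 131.1, 136.0 and 139.1 CPM with DMSO. No compound library overlapped the DMSO libraries of its time. The log2 changes were 0.31 ± 0.03 and 0.36 ± 0.03 at 24 h and 0.22 ± 0.03 and 0.26 ± 0.03 at 8 h, with AML874 before SEL120-34A. Unlike ETS2, ETV6 was not called between the compounds, with a log2 difference of AML874 over SEL120-34A of -0.05 (95% interval -0.10 to 0.00) at 24 h and -0.05 (-0.10 to 0.01) at 8 h, the 8 h difference being called at -0.07 when counts were scaled by library totals alone.

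The ELF genes, which act in blood and immune cells, were lower than DMSO at 8 h with each compound. ELF2 (chr4:139028112-139177218, minus strand) averaged 40.6 ± 1.43 CPM with AML874 and 38.7 ± 0.721 CPM with SEL120-34A at 8 h, against 49.3 ± 0.736 CPM with DMSO (SD), a log2 change of -0.28 ± 0.03 and -0.35 ± 0.03 (SE). At 24 h ELF2 had a log2 change of -0.13 ± 0.03 with AML874, which was called, and -0.08 ± 0.03 with SEL120-34A, which was not. Without SEL120-34A replicate 2 or DMSO replicate 2 at 24 h, or without the 4 libraries named above, that last value was -0.10 and called, as it was at -0.09 with library totals, median-of-ratios scaling, DESeq2 or only the groups compared, and at -0.08 with RSEM expected counts. ELF4 (chrX:130064874-130110716, minus strand) averaged 100.9 ± 3.3 and 92.1 ± 0.189 CPM with AML874 and SEL120-34A at 8 h, against 110.0 ± 2.86 CPM with DMSO, with changes of -0.12 ± 0.03 and -0.26 ± 0.03. At 24 h its changes were -0.03 ± 0.03 with either compound, with a 95% interval of -0.08 to 0.03, and the libraries overlapped. ELF1 (chr13:40932028-41061440, minus strand) was lower than DMSO at 8 h and higher at 24 h. It averaged 172.7 ± 3.38 and 164.3 ± 4.08 CPM with AML874 and SEL120-34A at 8 h, against 186.3 ± 2.13 CPM with DMSO, with changes of -0.11 ± 0.02 and -0.18 ± 0.02. At 24 h ELF1 averaged 234.6 ± 4.09 and 232.5 ± 3.61 CPM, against 218.5 ± 2.66 CPM with DMSO, with changes of 0.10 ± 0.02 and 0.09 ± 0.02.

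FLI1, the neighbour of ETS1 on chromosome 11 (chr11:128686535-128813267, plus strand), lay close to DMSO in all 4 comparisons. It averaged 205.5 ± 2.13 and 203.3 ± 2.12 CPM with AML874 and SEL120-34A at 8 h, against 215.3 ± 4.91 CPM with DMSO, with log2 changes of -0.07 ± 0.03 and -0.08 ± 0.03. At 24 h it averaged 267.8 ± 9.13 and 273.3 ± 13.4 CPM, against 255.7 ± 9.09 CPM with DMSO, with changes of 0.07 ± 0.03 and 0.10 ± 0.03. Only the SEL120-34A values were called, that at 24 h with libraries that overlapped DMSO, and all 4 depended on single libraries. The SEL120-34A call at 8 h was lost without DMSO replicate 3 (-0.08), without the 4 libraries named above (-0.06), with a filter of 1 CPM (-0.07) and with library totals (-0.02), and that at 24 h without SEL120-34A replicate 2 (0.06), DMSO replicate 2 (0.08) or DMSO replicate 3 (0.07). The AML874 value was called at 8 h without AML874 replicate 1 (-0.09) or DMSO replicate 2 (-0.09), with a filter of 1 count in total (-0.07) and with only the groups compared (-0.06). At 24 h it was called without AML874 replicate 3 (0.09), DMSO replicate 1 (0.09) or the 4 libraries (0.09) and with a filter of 1 count in total (0.07) or 1 CPM (0.10). SENCR, annotated on the opposite strand of FLI1, had 2.16 to 3.29 CPM as group means.

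ERG, the neighbour of ETS2 on chromosome 21 (chr21:38380027-38661780, minus strand), was low throughout, at 8.68 to 11.6 CPM. At 8 h it had 10.6, 11.3 and 11.3 CPM in AML874 libraries and 9.98, 8.68 and 8.92 CPM in SEL120-34A libraries, against 9.35, 9.71 and 10.0 CPM in DMSO libraries. The AML874 libraries lay above the other 6, with a log2 change of 0.19 ± 0.05 over DMSO that was not called without DMSO replicate 1 (0.15). The SEL120-34A value of -0.08 ± 0.06 was not called, except without SEL120-34A replicate 1 (-0.15). At 24 h the changes were 0.05 ± 0.05 and 0.06 ± 0.05, neither called.

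ELK3 (chr12:96194382-96269835, plus strand), a partner of SRF, averaged 60.4 ± 2.48 CPM with AML874 and 59.0 ± 3.7 CPM with SEL120-34A at 24 h, against 54.8 ± 0.139 CPM with DMSO, with log2 changes of 0.14 ± 0.03 and 0.11 ± 0.03. The SEL120-34A call was lost without SEL120-34A replicate 3 (0.06). At 8 h the changes were 0.05 ± 0.03 and 0.05 ± 0.04 and were not called, except with library totals (0.09 and 0.12). GABPA (chr21:25734570-25772460, plus strand) averaged 82.2 ± 2.42 and 80.7 ± 2.38 CPM with AML874 and SEL120-34A at 8 h, against 93.7 ± 2.8 CPM with DMSO, with changes of -0.19 ± 0.03 and -0.21 ± 0.03. At 24 h its change was -0.13 ± 0.03 with AML874, which was called, and -0.07 ± 0.03 with SEL120-34A, which was called only without SEL120-34A replicate 3 (-0.09) or with median-of-ratios scaling or DESeq2 (-0.08). GABPA overlaps ATP5PF on the opposite strand, and forward-strand reads at GABPA came to 36.3% of the reverse-strand counts used, against 0.185 to 0.844% for the other members.

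Counted over the 10 genes, 8 were called with AML874 at 8 h, 3 higher and 5 lower, beside 39.6% of all 20920 genes (19.7% higher and 19.9% lower). SEL120-34A at 8 h had 8 called, 2 higher and 6 lower, beside 45.1% of all genes (22.4% and 22.6%). AML874 at 24 h had 7 called, 4 higher and 3 lower, beside 46.8% (23.1% and 23.7%). SEL120-34A at 24 h had 6 called, 5 higher and 1 lower, beside 37.7% (19.1% and 18.6%). A call is a Benjamini-Hochberg adjusted p under 0.05 in the fit of all genes by edgeR's quasi-likelihood test. Because the list was made with these results known, nothing is read from these shares, and the comparisons at one time share their DMSO libraries. The median log2 change of the 10 genes was -0.09, -0.13, 0.06 and 0.07 in that order, beside 0.00, 0.00, 0.00 and 0.01 for all genes. Without the 4 libraries named above 8, 7, 8 and 7 members were called. The split with SEL120-34A was 3 higher and 5 lower at 8 h with library totals and 5 higher and 3 lower at 24 h with median-of-ratios scaling.

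**Figure D3:**
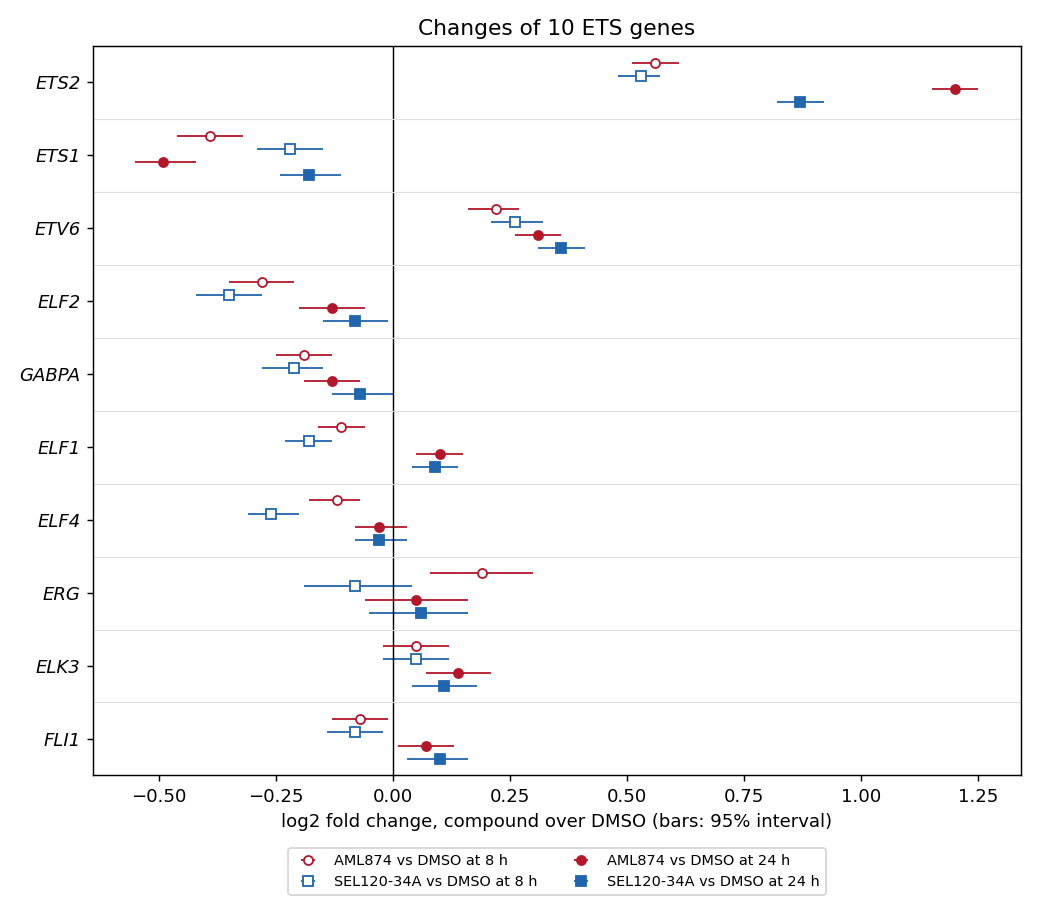
Log2 fold change of each of the 10 ETS genes with each compound over DMSO at 8 h (open) and 24 h (filled), with 95% intervals. ETS2 reaches 1.20 with AML874 at 24 h. ETS2, ETS1 and ETV6 were called on the same side of zero in all 4 comparisons. ELF1 lies at -0.18 to -0.11 at 8 h and at 0.09 to 0.10 at 24 h.

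Between the compounds, 2 members were called at 24 h beside 19.6% of all genes (8.00% higher and 11.6% lower), ETS2 and ETS1. The 2 of 10 lay near that share. ETS2 was higher with AML874 than with SEL120-34A by 0.33 ± 0.02 and ETS1 lower by 0.31 ± 0.03 on the log2 scale. The other 8 lay between -0.06 and 0.03. At 8 h 4 members were called, 3 higher and 1 lower with AML874, beside 31.2% of all genes (16.0% and 15.2%). The 4 of 10 lay not far above that share. ERG was higher with AML874 by 0.27 ± 0.05, ELF4 by 0.13 ± 0.03 and ELF1 by 0.07 ± 0.02, and ETS1 was lower, with -0.17 ± 0.03. ETS2 differed by 0.04 (95% interval -0.01 to 0.09) and was not called. The ELF1 call was lost without AML874 replicate 1 (0.05) or 2 (0.07), without SEL120-34A replicate 1 (0.05) or 3 (0.06), with a filter of 1 count in total (0.07) and with library totals (0.05), where the split became 2 higher and 2 lower. ELF2 was called with RSEM expected counts (0.09). Since neither dose is given, these are differences between 2 treatments as carried out and not between compounds at matched doses.

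With time alone, 7 members were called in DMSO cells at 24 h against 8 h, 6 higher and 1 lower, beside 42.5% of all genes (19.8% higher and 22.7% lower). ETS2 was higher by 0.27 ± 0.02, FLI1 by 0.25 ± 0.03, ELF1 by 0.23 ± 0.02, ETV6 by 0.18 ± 0.03, ERG by 0.17 ± 0.05 and ETS1 by 0.15 ± 0.03, and ELF4 was lower, with -0.17 ± 0.03. The effect of AML874 at 24 h minus that at 8 h was called in 4 members, all upward, beside 23.6% of all genes (11.1% upward), and that of SEL120-34A in 7, all upward, beside 27.3% (14.2% upward). The difference for ETS2 was 0.64 ± 0.03 with AML874 and 0.34 ± 0.03 with SEL120-34A. For ELF1 it was 0.21 ± 0.03 and 0.27 ± 0.03, for ELF2 0.15 ± 0.05 and 0.27 ± 0.05, and for FLI1 0.13 ± 0.04 and 0.18 ± 0.04. ELF4 (0.23 ± 0.04), GABPA (0.15 ± 0.04) and ETV6 (0.10 ± 0.04) were called with SEL120-34A, and whether these differences over time themselves differ between the compounds was not tested. With AML874, ELF4 had 0.10 and ETV6 0.09, not called, but each was called with a filter of 1 CPM (0.12 for both). ELF4 was also called without any of 5 libraries in turn (0.12 to 0.13), and ETV6 without any of 5 in turn (0.11 to 0.13) and with RSEM expected counts (0.09). With AML874 the ELF2 call was lost without AML874 replicate 2 at 24 h (0.11) and the FLI1 call without AML874 replicate 1 at 24 h (0.11), and with library totals ETS1 was called downward (-0.14) and the split was 2 upward and 1 downward, with ELF2 (0.11) and FLI1 (0.09) not called. The ETV6 call was lost without any of 6 libraries in turn (0.08 to 0.10) and in 8 other settings, and the GABPA call with library totals (0.07).

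Besides the 10 members, the family list holds 18 further genes, of which 12 passed the filter. The most abundant of all was SPI1, which codes for PU.1, a master factor of myeloid cells. SPI1 had 177.5 ± 4.01 and 198.0 ± 3.94 TPM with AML874 and SEL120-34A at 24 h, against 224.1 ± 2.87 TPM with DMSO, and 226.2 ± 4.74 and 223.1 ± 8.19 TPM at 8 h, against 253.7 ± 1.41 TPM. Its log2 change in counts was -0.28 ± 0.03 and -0.17 ± 0.03 at 24 h and -0.22 ± 0.03 and -0.25 ± 0.03 at 8 h (edgeR adjusted p = 3.55e-09, 3.23e-05, 4.99e-07 and 3.18e-08). SPI1 was lower in all 4 comparisons, and is also among the 10 myeloid markers.

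ETV5, of the PEA3 group that ERK signalling induces, had the largest change among the further genes above 5 CPM. At 24 h it had 7.68, 7.76 and 7.6 CPM in AML874 libraries and 10.9, 11.3 and 12.1 CPM in SEL120-34A libraries, against 21.9, 18.6 and 19.0 CPM in DMSO libraries. At 8 h it had 13.0, 13.4 and 12.5 CPM with AML874 and 18.0, 19.1 and 18.5 CPM with SEL120-34A, against 15.9, 15.2 and 17.6 CPM with DMSO. The groups did not overlap at either time, and at 8 h the compounds lay on opposite sides of DMSO. The log2 change was -1.37 ± 0.06 with AML874 and -0.79 ± 0.06 under SEL120-34A at 24 h (edgeR adjusted p = 1.69e-19 and 2.17e-13), and -0.32 ± 0.06 and 0.19 ± 0.06 at 8 h (2.15e-05 and 0.00465). The rise with SEL120-34A was not called without DMSO replicate 2 (0.14). ETV5 was lower with AML874 than with SEL120-34A by 0.52 ± 0.06 at 8 h and by 0.58 ± 0.06 at 24 h (adjusted p = 9.53e-09 and 1.22e-08 by edgeR).

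Its relatives ETV4 and ETV1 were under 1.2 CPM. ETV4 averaged 0.305 ± 0.0614 and 0.487 ± 0.126 CPM with AML874 and SEL120-34A at 24 h, against 0.933 ± 0.2 CPM with DMSO, with log2 changes of -1.62 ± 0.22 and -0.94 ± 0.20 (edgeR adjusted p = 1.27e-07 and 0.000346). At 8 h ETV4 changed by -1.21 ± 0.23 with AML874 (4.66e-05, edgeR adjusted p) and had 0.05 ± 0.20 with SEL120-34A. ETV1 was lower than DMSO by 0.96 ± 0.20 and 1.00 ± 0.20 on the log2 scale at 24 h, and FEV, at 0.0702 to 0.387 CPM, by 1.44 ± 0.36 and 1.22 ± 0.35. In DMSO cells ETV1 averaged 0.497 CPM at 8 h and 0.898 CPM at 24 h (0.85 ± 0.20, edgeR adjusted p = 0.000777). It averaged 0.383 and 0.462 CPM with AML874 and 0.514 and 0.441 CPM with SEL120-34A at 8 h and 24 h. ERF, a repressor that ERK exports from the nucleus, was lower in all 4 comparisons, by 0.38 ± 0.03 and 0.20 ± 0.03 at 24 h and 0.19 ± 0.03 and 0.11 ± 0.03 at 8 h on the log2 scale. ELK1 had -0.09 ± 0.03 with either compound at 8 h, ETV3 had -0.10 ± 0.03 and -0.08 ± 0.03 at 24 h, and ELK4 was higher with AML874 at 8 h by 0.10 ± 0.03 and with SEL120-34A at 24 h by 0.07 ± 0.03. ELF3, ETV2 and SPIB were not called in any comparison with DMSO and lay at or under 1.12 CPM. SPIB was called with AML874 at 8 h without AML874 replicate 1 (-0.64) or DMSO replicate 3 (-0.60), FEV there without AML874 replicate 2 (-0.95), and ELF3 with SEL120-34A at 24 h without DMSO replicate 2 (-1.59) or with a filter of 1 count in total (-1.22). The ETV3 call with SEL120-34A was lost without SEL120-34A replicate 2 or 3 (-0.07 each) or DMSO replicate 1 (-0.06), with a replicate block or a filter of 1 count in total (-0.08 each), with unstranded counts (-0.07) and with a filter of 1 CPM (-0.06). The ELK4 call with SEL120-34A at 24 h was lost without any of the 6 libraries (0.06 to 0.08) and with library totals, median-of-ratios scaling, DESeq2, RSEM expected counts, a filter of 1 count in total or only the groups compared (0.06 to 0.07). ELK4 was called with SEL120-34A at 8 h with library totals (0.08) and with AML874 at 24 h with a filter of 1 CPM (0.06). With library totals, ELK1 was not called at 8 h with AML874 (-0.05) or SEL120-34A (-0.02), nor ERF with SEL120-34A (-0.05). Without the 4 libraries named above, ELK1 (-0.07 with each compound) and ERF with SEL120-34A (-0.07) were not called at 8 h, nor FEV (-1.02), ETV3 (-0.05) and ELK4 (0.07) with SEL120-34A at 24 h, while SPIB was called with AML874 at 8 h (-0.57). With RSEM expected counts SPIB was called lower with AML874 and SEL120-34A at 8 h (-0.58 and -0.60) and with SEL120-34A at 24 h (-0.50).

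In counts, edgeR called 6 of the 12 with AML874 at 8 h (1 higher, 5 lower) and 4 with SEL120-34A, 1 higher and 3 lower. At 24 h 7 were called with AML874, 0 higher and 7 lower, and 8 with SEL120-34A, 1 higher and 7 lower. The shares of all genes called lower were 19.9%, 22.6%, 23.7% and 18.6% in that order. Those called higher were 19.7%, 22.4%, 23.1% and 19.1%, and those called in either direction 39.6%, 45.1%, 46.8% and 37.7%. With SEL120-34A at 8 h the 4 of 12 called lay under the 45.1% of all genes, and the 3 lower lay near their 22.6%. The median log2 change of the 12 was -0.27, -0.01, -0.27 and -0.26, beside 0.00 to 0.01 for all genes. With SEL120-34A at 8 h the split was 2 higher and 1 lower with library totals, and at 24 h 0 higher and 7 lower with library totals or median-of-ratios scaling. Without the 4 libraries named above, SEL120-34A had 2 called at 8 h, 1 higher and 1 lower, and 5 at 24 h, all lower.

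**Figure D4:**
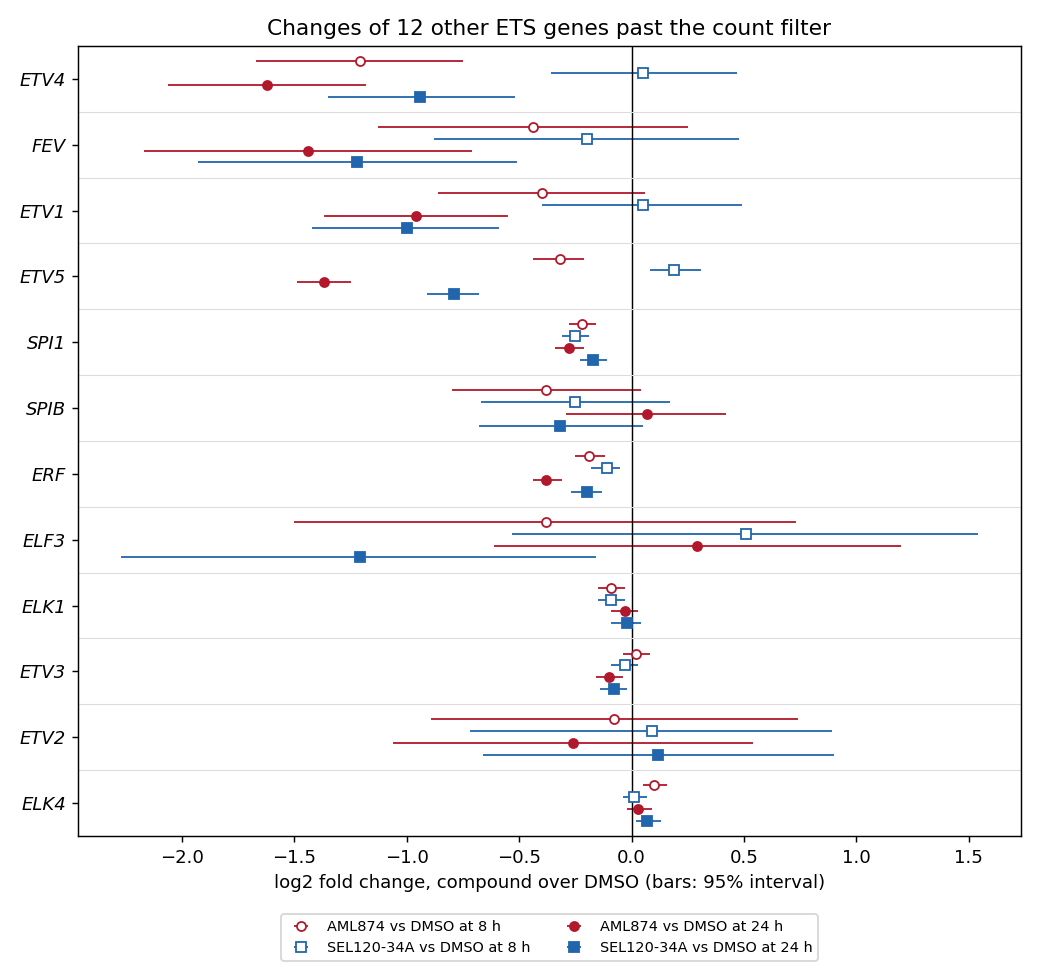
Log2 fold change of the 12 further ETS genes past the count filter, with each compound over DMSO at 8 h (open) and 24 h (filled), with 95% intervals. ETV5 lies at -1.37 and -0.79 at 24 h, SPI1 and ERF were called lower in all 4 comparisons, and the intervals of FEV, ELF3 and ETV2 are wide.

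Among 17 partners and corepressors of ETS proteins, all tested, 2 were higher and 9 lower with AML874 at 8 h, then 3 and 9 with SEL120-34A at 8 h, 2 and 8 with AML874 at 24 h, and 4 and 7 with SEL120-34A at 24 h. Of all genes, 19.7% were called higher and 19.9% lower, then 22.4% and 22.6%, 23.1% and 23.7%, and 19.1% and 18.6%, in the same order. The median log2 changes of the partners were -0.11, -0.10, -0.09 and -0.07, beside 0.00 to 0.01 for all genes. EP300, an acetyltransferase and coactivator, fell by 0.31 ± 0.03 with AML874 at 24 h (edgeR adjusted p = 2.54e-12) and by 0.28 ± 0.03 with each compound at 8 h. RUNX1, which binds beside ETS1 at many blood genes, had -0.26 ± 0.02 and -0.31 ± 0.02 at 8 h with AML874 and SEL120-34A (edgeR adjusted p = 1.19e-10 and 1.14e-12). GABPB1, a partner subunit of GABPA, had -0.39 ± 0.04 and -0.22 ± 0.04 at 24 h (edgeR adjusted p = 2.67e-11 and 4.34e-06). GABPB2, another such subunit, was higher with SEL120-34A at 24 h, by 0.17 ± 0.03 (edgeR adjusted p = 5.86e-05). SRF was also higher there, by 0.23 ± 0.03 (edgeR adjusted p = 1.32e-07).

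The list of the ERK cascade, which phosphorylates ETS1, ETS2 and the ELK factors, and of its feedback genes had 15 of 16 genes tested. Of these 0 were higher and 10 lower with AML874 at 8 h, 3 and 6 with SEL120-34A at 8 h, and 2 and 11 with each compound at 24 h. The shares of all genes called lower were 19.9%, 22.6%, 23.7% and 18.6%, taking AML874 first at each time, and those called higher were 19.7%, 22.4%, 23.1% and 19.1%. The medians of the listed genes were -0.14, -0.07, -0.22 and -0.18 in that order. Kinases of the cascade and its feedback inhibitors were not counted apart. With each compound at 24 h, the smallest adjusted p values belonged to the feedback genes SPRED1, SPRED2, SPRY1 and SPRY2. The feedback inhibitor SPRED1 fell by 1.02 ± 0.04 with AML874 and 0.70 ± 0.04 under SEL120-34A at 24 h on the log2 scale (edgeR adjusted p = 3.84e-20 and 1.31e-15). SPRY2, another feedback inhibitor, fell by 0.63 ± 0.04 and 0.65 ± 0.04 (edgeR adjusted p = 2.43e-14 and 1.99e-14).

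Of 12 genes known as targets of ETS1 and ETS2 with AP-1, 7 were tested. At 24 h all 7 were lower with each compound, with medians of -0.33 with AML874 and -0.24 with SEL120-34A, beside 23.7% and 18.6% of all genes called lower. At 8 h 0 were higher and 5 lower with AML874, beside 19.7% and 19.9% of all genes. With SEL120-34A at 8 h 2 were higher and 0 lower, beside 22.4% and 22.6%, and the 2 of 7 higher lay near that share. CSF1R, the receptor of the macrophage growth factor CSF1, fell by 0.98 ± 0.06 with AML874 and 0.70 ± 0.05 under SEL120-34A at 24 h (edgeR adjusted p = 4.14e-14 and 5.71e-11). At 8 h it had -0.25 ± 0.06 with AML874 and 0.39 ± 0.05 with SEL120-34A (edgeR adjusted p = 0.000611 and 1.39e-06). PLAUR, the urokinase receptor, fell by 0.82 ± 0.09 with AML874 at 24 h (edgeR adjusted p = 2.35e-07). These lists come from textbook knowledge of other cells, and whether ETS2 binds any of the genes in OCI-AML1 was not measured. The lists of partners, ERK genes and targets were also drawn up with earlier results of these data known. Their counts and adjusted p values therefore describe and do not test.

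For the other factors, all 9 listed targets of SRF with ELK factors were tested, of which 0 were higher and 7 lower with AML874 and 2 and 6 with SEL120-34A at 8 h, and 1 and 6 with each at 24 h, beside 18.6 to 23.7% of all genes called lower and 19.1 to 23.1% called higher. Their medians were -0.58 and -0.42 at 8 h and -0.54 and -0.37 at 24 h, AML874 before SEL120-34A, beside 0.00 to 0.01 for all genes. EGR1, an immediate early factor, had log2 changes of -3.81 ± 0.25 and -3.06 ± 0.23 at 8 h and -2.87 ± 0.22 and -3.45 ± 0.23 at 24 h, with AML874 before SEL120-34A (edgeR adjusted p = 4.14e-08, 1.62e-07, 1.25e-07 and 5.27e-08). Among 10 targets of GABP, 2 were higher and 5 lower with each compound at 8 h, 2 and 3 with AML874 at 24 h, and 4 and 1 with SEL120-34A at 24 h. Beside these stood 39.6%, 45.1%, 46.8% and 37.7% of all genes called in either direction, AML874 first at each time, and at 24 h the 5 of 10 called with AML874 lay near that share. The GABP medians stayed within -0.06 to 0.02. Among 13 targets of ERG and FLI1, 7 were tested, with 0 higher and 1 lower with AML874 at 8 h, 1 and 3 with SEL120-34A at 8 h, 3 and 4 with AML874 at 24 h, and 2 and 3 with SEL120-34A at 24 h, beside the same shares of all genes. Their medians were 0.01, 0.04, -0.17 and -0.09. LMO2, a stem cell factor, was higher at 24 h, with log2 changes of 0.40 ± 0.03 and 0.33 ± 0.03 (edgeR adjusted p = 1.81e-12 and 2.69e-10). TAL1, its partner, was lower, with -0.34 ± 0.05 and -0.24 ± 0.05 (edgeR adjusted p = 2.05e-06 and 0.000446). RUNX1 is on this list too, and SRF is both a partner and a target in these lists.

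The mean length of each gene's transcripts, weighted by abundance as RSEM estimates it, was a measure that played no part in choosing the genes. It depends on the mix of isoforms and was tested with limma over 11170 genes. ELK3 transcripts were shorter with each compound at 8 h. The mean length was 3770, 3854 and 3757 bases in AML874 libraries and 3662, 3675 and 3679 bases in SEL120-34A libraries, against 3929, 3969 and 3960 bases in DMSO libraries. The 3 groups did not overlap. The log2 ratio to DMSO was -0.06 ± 0.012 with AML874 (limma adjusted p = 0.00971) and -0.11 ± 0.012 with SEL120-34A (5.64e-05), or -4.02% and -7.10%. FLI1 transcripts were shorter with SEL120-34A at 8 h, at 3332, 3377 and 3376 bases, against 3513, 3459 and 3467 bases with DMSO (-0.05 ± 0.011, limma adjusted p = 0.00631), and not with AML874, at 3508, 3458 and 3451 bases. No member was called at 24 h by limma at an adjusted p under 0.05, the lowest values being 0.355 with AML874 and 0.154 with SEL120-34A. At an unadjusted p under 0.05 there were 0 members with AML874 and 1 with SEL120-34A, ELK3 (0.0111), and limma without its trend and robust options called 0 as well. The counts were thus 1 of 10 and 2 of 10 at 8 h with AML874 and SEL120-34A, beside 6.92% and 15.1% of all genes tested, and 0 at 24 h, beside 2.64% and 2.73%. These counts lay near their shares, so nothing is read from them about the members as a set. Without DMSO replicate 1 at 8 h ETS2 was also called with AML874, at 0.04. The lengths were not refitted without the libraries highest in hypoxia genes as a set. ELK3 has 6 and FLI1 9 listed transcripts, of 539 to 4205 and 561 to 5370 bases, and gene totals do not show which isoforms moved.

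**Figure D5:**
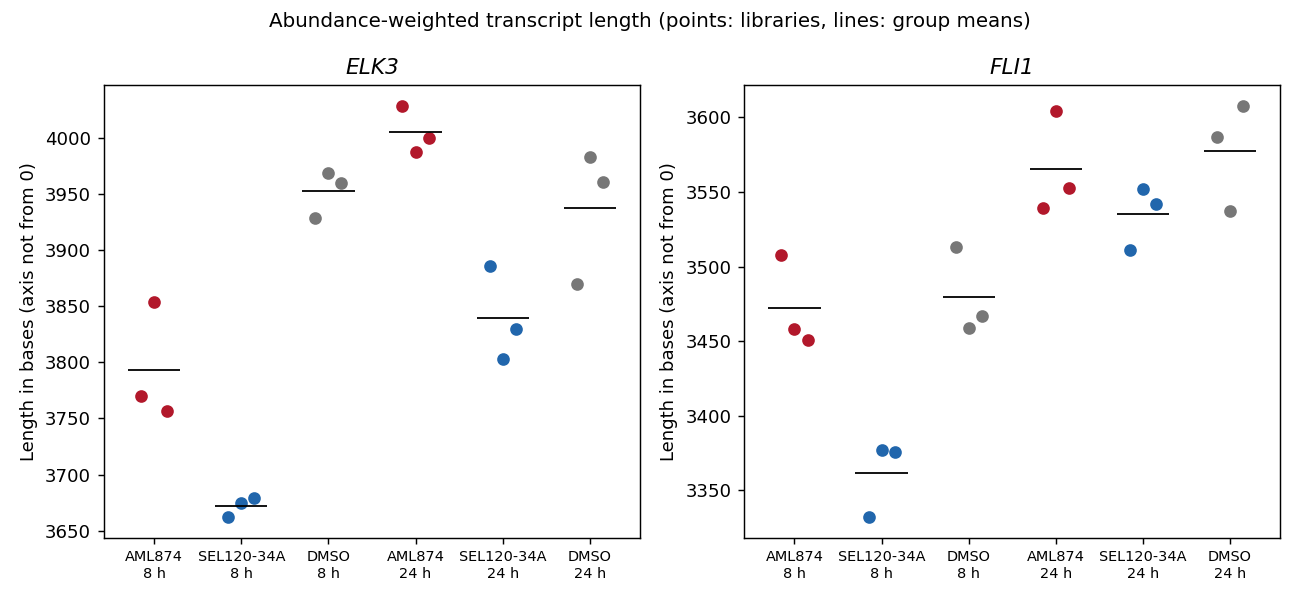
Abundance-weighted mean transcript length in bases of ELK3 (left) and FLI1 (right) in each of 18 libraries, with lines at the group means; the axes do not start at 0. ELK3 lies at 3662 to 3679 bases with SEL120-34A at 8 h, against 3929 to 3969 bases with DMSO, and FLI1 at 3332 to 3377 bases against 3459 to 3513 bases.

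Across the 18 libraries the members followed different patterns, given as Pearson's r of log2 CPM with no test, since libraries of a group share their treatment. ETS2 went with ETV6 (0.94) and ELK3 (0.83), and ELF1 with FLI1 (0.97), while ELF2 went with GABPA (0.94). ETS1 had 0.79 with GABPA and -0.47 with ETS2. Among 9916 other protein-coding genes with a mean of at least 5 CPM, the 5 most like ETS2 were IRF8 (0.994), MUS81 (0.98), CNN2 (0.98), SATB1 (0.98) and NRIP1 (0.979). IRF8, a factor of monocyte and dendritic development, averaged 333.3 ± 2.77 CPM with AML874 and 305.2 ± 9.98 CPM with SEL120-34A at 24 h, against 211.2 ± 1.48 CPM with DMSO. At 8 h it averaged 242.6 ± 3.86 and 232.9 ± 1.43 CPM, against 184.2 ± 5.06 CPM with DMSO. SATB1, a chromatin organiser, averaged 556.5 ± 10.3 and 483.8 ± 8.09 CPM with AML874 and SEL120-34A at 24 h, against 339.0 ± 5.32 CPM with DMSO.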

How the data were processed

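Per the labels' protocols, TRIzol and RNeasy MinElute columns gave the RNA, which was selected for poly(A). Reads were processed with STAR 2.7.1a and RSEM 1.3.2 on GRCh38, per the submitters' processing notes; the annotation release is not given in the sources used here. The authors deposited, per library, read counts per gene in 3 columns (unstranded, forward, reverse) and RSEM gene results with expected counts, TPM scaled for length and depth, and mean and effective transcript lengths. The reverse counts (column 4) were used, at 1.045 to 1.049 times the unstranded counts. The summary lines, 21.94 to 25.52% of reads, name no gene and were left out. Of 60609 identifiers, 60340 had a symbol and 58502 a position in GENCODE 29.

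The filter filterByExpr, TMM scaling and 1 robust quasi-likelihood model of the 6 groups were run in edgeR 4.0.16 under R 4.3.3. In the 9 comparisons a call was an adjusted p below 0.05 (Benjamini-Hochberg, over 20920 genes). Log2 length was tested with limma 3.58.1 in genes of at least 1 TPM. A count of 0 allows up to 3 counts, or 0.0211 to 0.0303 CPM on unscaled library totals, for counting error only. No libraries were identical. Scripts were tested on simulated data. All 10 members were named, ETS2 in every library, all further ETS genes past the filter, up to 4 genes per list and comparison by adjusted p, and the 5 genes most like ETS2; ETS1, ETV6, ERG, ETV5, ELK3 and FLI1 were given by library after their values were seen. The members and lists were chosen with earlier results of these data known. Alternatives were median-of-ratios factors, library totals, low-count filters (1 count in total, or 1 CPM in 3 libraries), DESeq2 1.42.0, a replicate block, only the groups compared, unstranded counts, rounded expected counts and leaving out each library; for length, a mean of 5 TPM, effective length and plain limma. Leaving out the 4 libraries highest in hypoxia genes was chosen after seeing the data.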

Additional observations from a re-analysis of the deposited data

Results flagged for a closer look

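Several ETS genes had an effect against DMSO that differed between 24 h and 8 h, as a difference of effects called in the edgeR fit of all genes (quasi-likelihood test, Benjamini-Hochberg adjusted p under 0.05). With AML874 the effect was higher at 24 h than at 8 h for ETS2 (0.64 ± 0.03, log2 and SE), ELF1 (0.21 ± 0.03), ELF2 (0.15 ± 0.05) and FLI1 (0.13 ± 0.04), and lower for ETV5 (-1.05 ± 0.08), ERF (-0.19 ± 0.05) and ETV3 (-0.13 ± 0.04). With SEL120-34A it was higher at 24 h for ETS2 (0.34 ± 0.03), ELF1 (0.27 ± 0.03), ELF2 (0.27 ± 0.05), ELF4 (0.23 ± 0.04), FLI1 (0.18 ± 0.04), GABPA (0.15 ± 0.04) and ETV6 (0.10 ± 0.04), and lower for ETV5 (-0.99 ± 0.08), ETV1 (-1.05 ± 0.30) and ETV4 (-0.99 ± 0.29). ELF1, FLI1 and ETV5 were called on opposite sides of DMSO at the 2 times with SEL120-34A, ELF1 at 0.09 at 24 h and -0.18 at 8 h, FLI1 at 0.10 and -0.08, and ETV5 at -0.79 and 0.19. With AML874 this held for ELF1, at 0.10 at 24 h and -0.11 at 8 h. With SEL120-34A the FLI1 libraries at 24 h overlapped those of DMSO. Each FLI1 call, and the ETV5 call at 8 h, was lost when certain single libraries were left out.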

How the results depend on the processing

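Under every alternative run, none of the log2 fold changes and transcript length ratios of the ETS genes changed sign as a called value. Of the log2 fold changes recomputed, 2194 kept their direction and side of the threshold, 63 lost their call and 50 gained one, and of the length ratios 395 kept theirs and 1 gained a call. ETS2, ETS1 and ETV6 stayed called against DMSO throughout. Scaling by library totals left the median log2 change of all genes between -0.0705 and 0.0646 and gave 5258 higher calls of 8286 with AML874 at 8 h (4125 of 8287 with TMM) and 6217 of 9348 with SEL120-34A at 8 h (4693 of 9425). Among the 12 further ETS genes, the count with SEL120-34A at 8 h was 2 without the 4 libraries highest in hypoxia genes, against 4 with all. At 24 h it was 5 without those libraries and 4 with a filter of 1 CPM, which left fewer genes tested, against 8. Leaving out 1 library at a time, the members called ranged over 7 to 9, 7 to 9, 7 to 8 and 5 to 6 with AML874 and SEL120-34A at 8 h and then at 24 h, and the further ETS genes over 6 to 7, 3 to 4, 7 to 7 and 6 to 8. Members called between the compounds ranged over 3 to 4 at 8 h and 2 to 2 at 24 h, those over time in DMSO over 7 to 7, and those with a late minus early effect over 3 to 6 with AML874 and 6 to 7 with SEL120-34A. Members with a changed transcript length ranged over 1 to 2 and 2 to 2 at 8 h, and 0 to 0 at 24 h with each compound. Where the cause of such a change is not named, the cause was not tested.

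Libraries of the same replicate number did not deviate together: over 45 pairs of libraries with one number in 2 groups the correlation of their deviations ran from -0.542 to 0.504 with a median of -0.00944, and over 90 pairs of libraries with different numbers from -0.521 to 0.593 with a median of 0.021. The numbers were therefore not taken as pairs. With the replicate number as a block, 8, 8, 7 and 6 members were called against DMSO, in the order above, and 6, 4, 7 and 7 further ETS genes. The block gave 4 and 2 members between the compounds, 7 over time in DMSO, and 4 and 6 with a late minus early effect of AML874 and SEL120-34A, where ETV6 was not called. With the block, 1 and 2 members had a changed length at 8 h and 0 at 24 h.

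The depth of 98975944 to 142496541 gene counts left ETS genes under about 1 CPM, such as FEV, ELF3 and ETV2, with wide intervals, so small differences there were not detectable at this depth. A single cell line, 3 libraries per group of unstated origin and unstated doses limit all comparisons.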
